A study of Mus musculus with 7 samples.

Results

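Marker genes of the X-zone, the transient inner layer of the mouse adrenal cortex, were followed through development. The 4 genes were taken by symbol from the table of 35976 genes: Akr1c18, Pik3c2g and Thrb, which mark the X-zone, and Cyp17a1, an enzyme of the fetal cortex. All 4 averaged at least 10 normalized counts per library, the minimum for testing, which 16720 genes met. Whole glands from inbred C57BL/6J mice were pooled before RNA sequencing, with no mutation or treatment named for any group. The pools were embryos at E18.5 (40 glands, sex not determined), males (16 glands) and females (22 glands) on postnatal day 1 (P1), males and females at 2 weeks (6 glands each), and males and females at 12 weeks (4 glands each). Each group was 1 library, so no value has a replicate error. Reproductive state of the females is not given in the sources used here.

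The X-zone lies between the corticosteroid-producing zona fasciculata and the medulla and descends from the fetal cortex. It is known to disappear at puberty in males and later in females, with the first pregnancy among the known settings. Thyroid hormone acting through its beta receptor is known to maintain it. Akr1c18 encodes 20-alpha-hydroxysteroid dehydrogenase, which inactivates progesterone. Pik3c2g encodes a class II phosphoinositide 3-kinase, and Thrb the thyroid hormone receptor beta. Cyp17a1 encodes 17-alpha-hydroxylase/17,20-lyase, which leads steroid precursors toward cortisol and androgens, and the adult mouse adrenal is known for the lack of it.

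Total reads in genes ranged from 15184210 to 23551289 per library. The library labelled P1 female held Y-linked transcripts, with Ddx3y, Eif2s3y, Kdm5d and Uty at a median of 21.0% of their P1 male level. The same library had 21943 normalized counts of Cyp11a1, the first enzyme of steroid synthesis, against 50055 in P1 male. In the other 5 libraries Cyp11a1 lay between 38523 and 74293. Intervals below are exact 95% intervals for counting error only (Poisson for a level, binomial for a ratio), because the reads carry no molecular identifiers and may repeat a molecule. In bulk tissue, fewer cells of a type and less RNA per cell cannot be told apart.

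The gene positions are from RefSeq (GRCm38.p6, the assembly of the submitters' build mm10). Akr1c18 lies on chromosome 13 (4132615 to 4150646, minus strand), Pik3c2g on chromosome 6 (139614072 to 139969284, plus strand), Thrb on chromosome 14 (17659225 to 18040097, plus strand) and Cyp17a1 on chromosome 19 (46667165 to 46673000, minus strand). No exon of another gene overlapped their exons on either strand in GENCODE M21. The bases 250 to 11 before the start are shown for Akr1c18 and Pik3c2g, the pair of genes with the most similar profile among the 4. Capitals mark matches to any of 6 motifs searched on both strands.
Akr1c18 (chr13:4150657-4150896, minus strand): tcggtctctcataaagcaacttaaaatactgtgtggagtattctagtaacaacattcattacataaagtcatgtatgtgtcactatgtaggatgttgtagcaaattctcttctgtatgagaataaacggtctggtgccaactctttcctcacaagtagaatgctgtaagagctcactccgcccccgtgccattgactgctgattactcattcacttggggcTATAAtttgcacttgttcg
Pik3c2g (chr6:139613822-139614061, plus strand): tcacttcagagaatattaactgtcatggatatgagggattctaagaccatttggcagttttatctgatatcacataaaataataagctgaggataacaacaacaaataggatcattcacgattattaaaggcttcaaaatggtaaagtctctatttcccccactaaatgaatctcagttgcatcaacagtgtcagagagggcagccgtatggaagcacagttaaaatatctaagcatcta

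The motifs were AGGTCA (the nuclear receptor half-site), CAAGGTCA (the Nr5a1 site, which contains the half-site), AGGTCA repeated after a gap of 4 bases (the direct repeat bound by thyroid hormone receptors), AGAACA followed after 3 bases by TGTTCT (a palindrome bound by steroid receptors such as the glucocorticoid receptor), AGAACA alone (its half-site) and TATAA. Akr1c18 held TATAA 29 to 25 bases before its start, a match found in 22.4% of 32851 RefSeq windows of the same length. The Pik3c2g window shown held none of the 6. A second annotated start of Pik3c2g held TATAA on the minus strand, 214 to 210 bases upstream. Of the Thrb windows, one held AGGTCA 184 to 179 bases upstream (13.5% of windows hold it). The other held TATAA, 167 to 163 bases upstream, and AGAACA on the minus strand, 23 to 18 bases upstream (15.5% of windows). No window is shown for Cyp17a1. A match describes these letters and is not a binding site.

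Akr1c18 had its highest level in the 2-week female library and was almost undetected in the 12-week male library. It had 283 normalized counts at E18.5 (interval 254 to 315), 811 in P1 male (761 to 863) and 827 in the library labelled P1 female (769 to 888). It had 5346 in 2-week male (5212 to 5483), 26949 in 2-week female (26648 to 27253), 2.80 in 12-week male (0.339 to 10.1, from 2 reads) and 774 in 12-week female (717 to 834). From low to high the order was 12-week male, E18.5, 12-week female, P1 male, P1 female, 2-week male and 2-week female. The intervals of the 12-week female and both P1 libraries overlapped one another, and the other neighbours were apart. Per kilobase of exon, Akr1c18 ranked 12 among 26749 genes in the 2-week female library, 76 in 2-week male and 15829 in 12-week male. Between E18.5 and P1, Akr1c18 was 2.86-fold higher in the male library (2.53 to 3.25) and 2.92-fold higher in the library labelled female (2.56 to 3.33). Both comparisons share the E18.5 library. Against the male P1 library 8.4% of tested genes were at least 2-fold apart (4.9% higher and 3.5% lower at P1), and against the one labelled female 13.2% (7.04% higher and 6.12% lower).

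**Figure D1:**
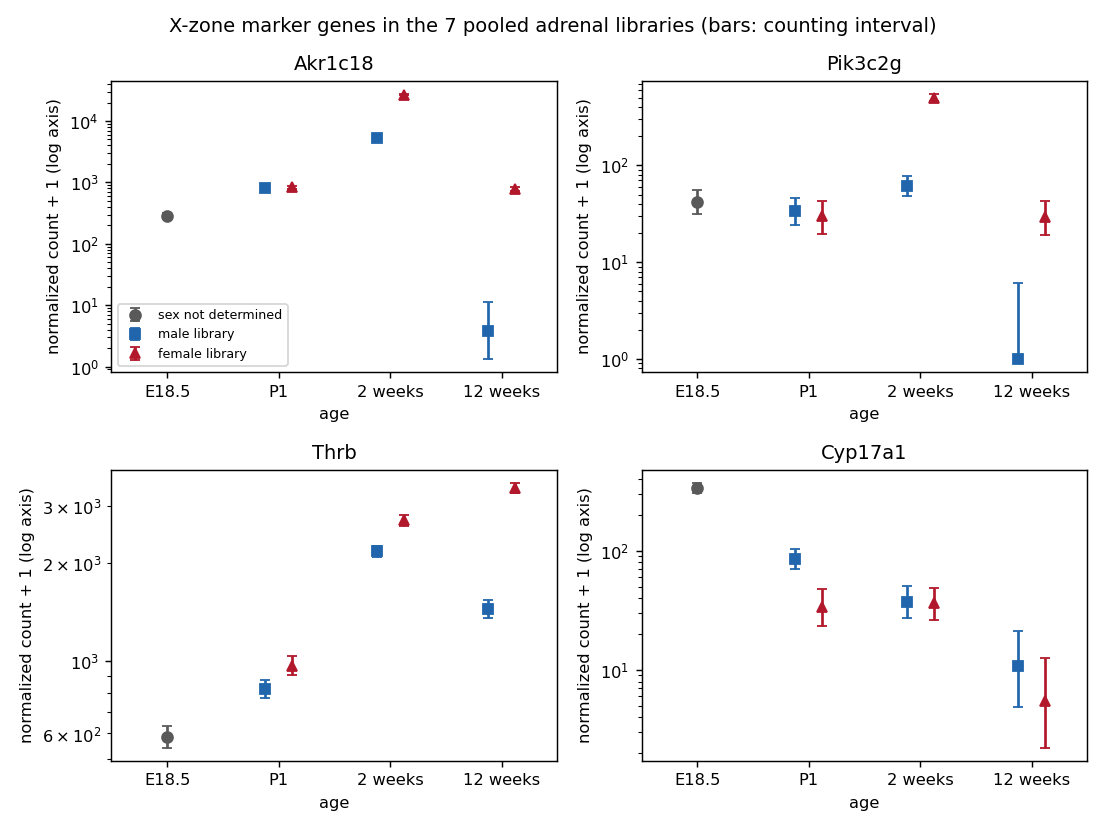
Normalized count plus 1 (log axis) of Akr1c18, Pik3c2g, Thrb and Cyp17a1 by age, with squares for male, triangles for female and circles for unsexed libraries, and bars for the 95% counting interval. Akr1c18 and Pik3c2g peak in the 2-week female library (26949 and 500.2) and are lowest in the 12-week male library, Thrb is highest in 12-week female (3394) and Cyp17a1 at E18.5 (336).

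The levels of Akr1c18 were then set against its gene family, aldo-keto reductases that reduce steroids and other carbonyls. Of 9 family genes, 8 were tested. In limma with Benjamini-Hochberg adjustment over all genes tested, 2 rose and 2 fell from P1 to 2 weeks, 1 rose and 2 fell from 2 to 12 weeks, and 2 rose and 4 fell from P1 to 12 weeks. Of all tested genes 16.4%, 15.3% and 41.2% passed in these steps. Akr1cl, which lies on chromosome 1, rose at both steps, with 5162 and 6329 normalized counts at P1 (male, then female), 11502 and 14266 at 2 weeks, and 23924 and 33509 at 12 weeks. Akr1c13 rose from P1 to 2 weeks by 1.94 ± 0.253 log2 (SE, adjusted p 0.00622 in limma), and Akr1c19 fell by 2.82 ± 0.477 (adjusted p 0.0129). Akr1c6 also fell from 2 to 12 weeks (-5.92 ± 0.558, adjusted p 0.00206), from 35.6 and 98.8 normalized counts to 0 reads in both sexes, so that the size of its fitted difference depends on the pseudocount of 1. The summed level of 8 liver markers fell over the same step, from 13830 and 35746 normalized counts to 471 and 410 (male, then female). The part of liver in the fall of Akr1c6 was not tested. The family median was 0.33 from P1 to 2 weeks, -0.94 from 2 to 12 weeks and -2.24 from P1 to 12 weeks, against 0.0026, -0.032 and -0.027 over all tested genes. With no pseudocount and 0 reads set to the floor of 3 reads, the last pair of medians became -0.98 and -2.41. With equal column totals 3 rather than 2 family genes fell from 2 to 12 weeks.

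Akr1c18 shared exact 50-base stretches with a relative only over a short run. Near matches, over which reads could also be mixed, were not searched. Of its 1205 distinct 50-base stretches in GENCODE transcripts, 7 occurred in another gene, all in Akr1cl. They form 1 run of 56 bases in the coding sequence, which crosses the junction of exons 4 and 5 of Akr1c18 (chr13:4142229-4143252, minus strand) and is shown because Akr1cl was abundant where Akr1c18 was not.
Run shared by Akr1c18 and Akr1cl: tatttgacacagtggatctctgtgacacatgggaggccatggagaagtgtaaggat
In the 12-week male library Akr1cl had 23924 normalized counts and Akr1c18 had 2 reads in all. Pik3c2g and Cyp17a1 shared no 50-base stretch with another gene, and Thrb shared 9 of 7385.

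**Figure D2:**
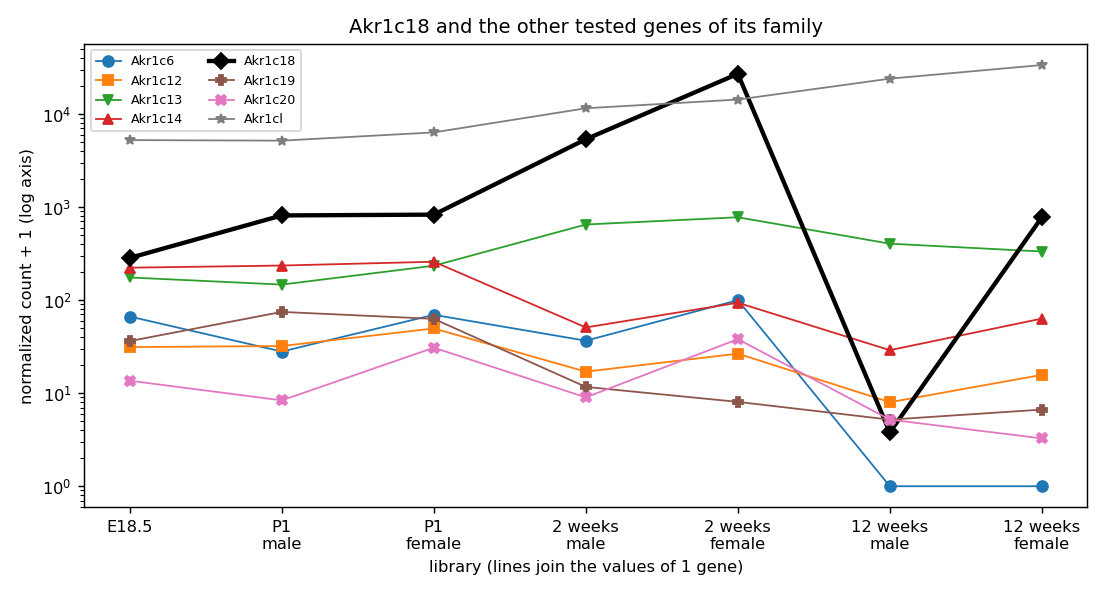
Normalized count plus 1 (log axis) of Akr1c18 (heavy black line) and the other 7 tested family genes in the 7 libraries; lines join the values of 1 gene. Akr1c18 is above Akr1cl in the 2-week female library alone (26949 against 14266), while Akr1cl is highest at 12 weeks (23924 and 33509).

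Pik3c2g was a low-level gene whose 2-week female value stood apart from all other libraries. It had 41.2 normalized counts at E18.5 (interval 30.5 to 54.4), 32.7 in P1 male (23.4 to 44.6) and 28.7 in the library labelled P1 female (18.8 to 42.1). It had 60.5 in 2-week male (47.0 to 76.7), 500.2 in 2-week female (460 to 543), 0 in 12-week male (0 reads, with 3 reads as the floor, 4.19 normalized counts) and 28.3 in 12-week female (18.3 to 41.8). From high to low the order was 2-week female, 2-week male, E18.5, P1 male, P1 female, 12-week female and 12-week male. The intervals of the 4 libraries from E18.5 to 12-week female in that order overlapped one another, and that of 2-week male overlapped the E18.5 interval. Of 8 genes for catalytic subunits of phosphoinositide 3-kinases, the enzymes that phosphorylate membrane inositol lipids, only Pik3c2g differed by at least 2-fold between the sexes at 2 weeks or at 12 weeks, where 4.24% and 8.83% of tested genes did. Pik3c2a, a class II relative, had 2575 to 3509 normalized counts in all 7 libraries. In limma 0 of these 8 genes rose and 1 fell from P1 to 2 weeks (Pik3cg, -1.30 ± 0.214, adjusted p 0.0117). From 2 to 12 weeks 1 rose (Pik3cg, 0.82 ± 0.214, adjusted p 0.0482) and 1 fell (Pik3c2g), and from P1 to 12 weeks 1 rose and 2 fell. These counts lie near the 16.4%, 15.3% and 41.2% of all tested genes that passed. The medians for the 3 steps were -0.030, 0.16 and -0.23. With equal column totals they were 0.021, -0.0076 and -0.35, the first pair with the opposite sign, and 0 rose and 2 fell both from 2 to 12 weeks and from P1 to 12 weeks.

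Pik3c2g is also known from liver, and liver transcripts varied between the libraries. The summed level of 8 liver markers, none of them at 0 in any library, was 249787 to 340882 normalized counts at E18.5 and P1. It was 13830 in 2-week male, 35746 in 2-week female, and 471 and 410 at 12 weeks (male, then female). Skeletal muscle markers also differed at 2 weeks (286 in male and 11783 in female, summed over 8 genes). The part of liver and muscle in the levels of Pik3c2g and in the sex difference at 2 weeks was not tested.

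Thrb rose from birth to 2 weeks in both sexes and then went apart between them. It had 585 normalized counts at E18.5 (interval 542 to 630), 821 in P1 male (771 to 873) and 968 in the library labelled P1 female (905 to 1034). It had 2171 in 2-week male (2085 to 2258), 2699 in 2-week female (2604 to 2796), 1444 in 12-week male (1358 to 1535) and 3394 in 12-week female (3274 to 3518). No 2 of these counting intervals overlapped, though they hold neither the spread between pools nor that of scaling. In these single libraries the order from low to high was E18.5, P1 male, P1 female, 12-week male, 2-week male, 2-week female and 12-week female. Thra, the alpha receptor, had 2.405 times the normalized count of Thrb at E18.5 and 0.361 times in 12-week female, without adjustment for length. Per kilobase of exon, Thra had 305 normalized counts against 79.0 of Thrb at E18.5, and 266 against 459 in 12-week female. In the 12-week male library the Thrb level was 42.5% of its highest, where Akr1c18 was at 0.0104% of its own.

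The genes around the receptor were taken as a list of 20, with deiodinases that activate or inactivate thyroid hormone, its transporters, receptor partners and known response genes, of which 18 were tested. From P1 to 2 weeks 6 rose and 2 fell in limma, from 2 to 12 weeks 0 rose and 5 fell, and from P1 to 12 weeks 4 rose and 4 fell. Of all tested genes 5.89% rose and 10.5% fell at the first step, 5.4% rose and 9.89% fell at the second, and 41.2% passed over the whole span, a share close to that of the list. Dio2, the activating deiodinase, rose most from P1 to 2 weeks, from 28.6 and 33.1 normalized counts to 688 and 750 (4.50 ± 0.210 log2, adjusted p 0.000609). The response gene Thrsp rose by 3.86 ± 0.297 (adjusted p 0.00176) and Dio3, the inactivating deiodinase, by 2.41 ± 0.446 (adjusted p 0.0167). Ttr, a carrier of the hormone that is also one of the liver markers, fell at both steps, with differences of -2.60 ± 0.660 and -5.74 ± 0.660 (adjusted p 0.0429 and 0.00390). Hr, another response gene, fell from 2 to 12 weeks by 1.75 ± 0.260 (adjusted p 0.00844). From P1 to 12 weeks Thra fell by 0.98 ± 0.179 (adjusted p 0.00645) while Thrb rose. The list medians were 0.20, -0.30 and -0.25 for the 3 steps, against 0.0026, -0.032 and -0.027 over all tested genes. With equal column totals 7 fell from 2 to 12 weeks and 6 from P1 to 12 weeks. Dio2 and Thrsp are also active in fat. The summed level of 8 adipocyte markers was 2926 to 3118 normalized counts at E18.5 and P1, 46153 and 51190 at 2 weeks and 35650 and 28063 at 12 weeks (male, then female). The part of fat in the rises of these genes was not tested.

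Cyp17a1 was highest before birth and close to the detection limit at 12 weeks. It had 336 normalized counts at E18.5 (interval 304 to 371), 85.1 in P1 male (69.5 to 103) and 33.1 in the library labelled P1 female (22.3 to 47.3). It had 36.5 in 2-week male (26.2 to 49.5), 35.3 in 2-week female (25.2 to 48.1), 9.79 in 12-week male (3.94 to 20.2, 7 reads) and 4.53 in 12-week female (1.23 to 11.6, 4 reads). E18.5 and P1 male stood apart from the rest, the intervals of P1 female and both 2-week libraries overlapped, and so did those of the 12-week libraries. Between E18.5 and P1, Cyp17a1 was 3.95-fold lower in the male library (3.17 to 4.95) and 10.1-fold lower in the library labelled female (7.00 to 15.2). Cyp11a1 was lower as well, 1.48-fold and 3.39-fold. Cyp17a1 per 1000 normalized counts of Cyp11a1 (both in normalized counts, not per length) was 4.52 at E18.5, 1.70 in P1 male and 1.51 in P1 female. It was 0.947 and 0.862 at 2 weeks, and 0.156 and 0.0700 at 12 weeks (male, then female). The ratio to Cyp11a1 was thus lower at each later age in both sexes, and its P1 libraries were closer to each other than their Cyp17a1 levels. From the library labelled P1 female to 2-week female, however, Cyp17a1 itself was not lower (33.1 and 35.3). There Cyp11a1 was 1.865-fold higher, and the lower ratio came from that. These ratios have no interval.

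Cyp17a1 was then set among genes of steroid synthesis. Of 18 genes in the list, Cyp17a1 included, 17 were tested. From E18.5 to P1, 3 of them were at least 2-fold lower and 1 higher in the male library, and 6 lower and 1 higher in the library labelled female. Cyp17a1 is itself among those lower in both. Of all tested genes 3.5% were lower and 4.9% higher in the male library, and 6.12% and 7.04% in the one labelled female. The list medians were -0.42 and -0.57 log2, against 0.026 and 0.045 over all tested genes. In limma 3 rose and 0 fell from P1 to 2 weeks, 1 rose and 2 fell from 2 to 12 weeks, and 6 rose and 2 fell from P1 to 12 weeks. Cyp17a1 is itself 1 of the 2 that fell at each of the last pair of steps, and Sult2a1 is the other. Of all tested genes 16.4%, 15.3% and 41.2% passed, so the list's counts for the 2 to 12 weeks and P1 to 12 weeks steps are near the background. Hsd3b6, a 3-beta-hydroxysteroid dehydrogenase of the zona glomerulosa, rose from P1 to 2 weeks by 3.28 ± 0.384 log2 (adjusted p 0.00471). Star, which moves cholesterol into mitochondria, rose from P1 to 12 weeks by 2.43 ± 0.371 (adjusted p 0.00326). Cyb5a, a partner of the lyase reaction of Cyp17a1, rose from 2 to 12 weeks by 0.94 ± 0.150 (adjusted p 0.0106). Sult2a1, a steroid sulfotransferase, also fell from 2 to 12 weeks (-5.51 ± 0.761, adjusted p 0.00677), to 0 reads in both sexes. The summed liver markers fell over this step as well, from 13830 and 35746 normalized counts to 471 and 410 (male, then female). The part of liver in the fall of Sult2a1 was not tested. The list medians were 0.28, 0.27 and 0.86 for the 3 steps, against the all-gene medians of 0.0026, -0.032 and -0.027. With equal column totals 4 rose from P1 to 2 weeks and 5 from P1 to 12 weeks.

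A further list held 26 genes that act in the fetal cortex or on the X-zone, among them Nr5a1 and its partners and inhibin and activin genes; 25 were tested. In limma 3 rose and 5 fell from P1 to 2 weeks, 0 rose and 4 fell from 2 to 12 weeks, and 4 rose and 11 fell from P1 to 12 weeks. Of all tested genes 16.4%, 15.3% and 41.2% passed, and the 4 of 25 from 2 to 12 weeks are at that background. Esr1, an estrogen receptor, rose from P1 to 2 weeks by 1.23 ± 0.217 log2 (adjusted p 0.0146). Wt1, a factor of the adrenal primordium that is also active in kidney, fell by 4.12 ± 0.242 (adjusted p 0.001003). The summed level of 8 kidney markers fell too, from 10300 and 2833 normalized counts at P1 to 81.8 and 97.9 at 2 weeks, and its part in the fall of Wt1 was not tested. Inha, the inhibin alpha subunit, fell from 2 to 12 weeks (-3.72 ± 0.459, adjusted p 0.00479), from 1272 and 1352 normalized counts to 120 and 81.5. Fst, which binds activin, fell by 2.13 ± 0.333 (adjusted p 0.00982). The list medians were 0.078, -0.033 and -0.26, the second close to the -0.032 of all tested genes. With equal column totals 4 fell from P1 to 2 weeks and 6 from 2 to 12 weeks.

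The sexes were compared within each age, without a test, since each had 1 library. At P1 the Akr1c18 levels differed by less than counting error, with a female to male ratio of 1.02 (interval 0.926 to 1.12), and so did those of Pik3c2g (0.877, 0.514 to 1.47). Thrb was 1.18-fold higher in the library labelled female (1.08 to 1.29). Cyp17a1 was 2.57-fold higher in the male library (1.70 to 4.00), beside a 2.28-fold higher Cyp11a1. Markers of other tissues also differed between the P1 libraries (8 genes each, male then labelled female): exocrine pancreas summed to 6464 and 89.4 normalized counts, kidney to 10300 and 2833, and skeletal muscle to 47716 and 80450. At E18.5, where Cyp17a1 was highest, these sums were 27.7, 1512 and 20918. Their part in the differences of the 4 genes between these libraries was not tested. Cyp17a1 was the 1 gene of the 4 that was at least 2-fold apart at P1, where 6.78% of tested genes were: 3.75% with the male level above and 3.03% with it below.

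At 2 weeks Akr1c18 was 5.04-fold (4.90 to 5.18) and Pik3c2g 8.27-fold (6.42 to 10.8) higher in the female library. Of the 4 genes these 2 were at least 2-fold apart, where 4.24% of tested genes were, 3.67% higher in female and 0.568% in male. Thrb was 1.24-fold higher in female (1.18 to 1.31). The Cyp17a1 ratio was 0.968 (0.610 to 1.53), not apart beyond counting error, and Cyp11a1 was 1.06-fold higher in female.

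At 12 weeks Akr1c18 was 277-fold higher in the female library, with an interval from 76.3 to 2290 because the male library had 2 reads. Pik3c2g was at least 6.74-fold higher in female against a floor of 3 reads in the male library, and with the counting error of the female reads the interval starts at 5.09. Thrb was 2.35-fold higher in female (2.19 to 2.52). With 7 and 4 reads, Cyp17a1 was not apart beyond counting error (ratio 0.462, 0.0993 to 1.82). On the log2(normalized count + 1) scale used for counting, the first 3 genes were at least 2-fold higher in female. Of tested genes 8.83% were that far apart, 3.98% higher in female and 4.84% in male. Cyp11a1 was within 1.03-fold. Of the 25 tested regulators listed above, 3 were at least 2-fold higher in female and 1 in male, beside those all-gene shares. Their median was -0.15 log2 male over female, against 0.021 over all tested genes. Among the 3, Nr0b1, a repressor of Nr5a1, had 46.1 and 350 normalized counts (male, then female). Prlr, the prolactin receptor, had 5679 and 23987. Both were named after their values were seen.

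**Figure D3:**
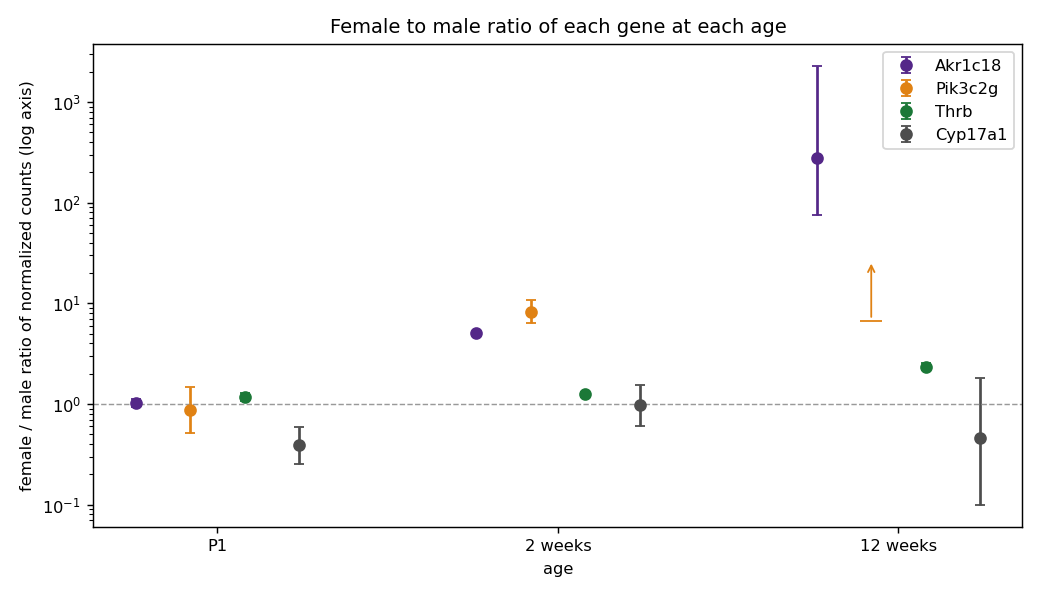
Female to male ratio of normalized counts (log axis) of the 4 genes at P1, 2 weeks and 12 weeks, with 95% counting intervals; the dashed line marks equal levels and the arrow a lower bound for Pik3c2g. Akr1c18 goes from 1.02 at P1 to 5.04 at 2 weeks and 277 at 12 weeks, while Cyp17a1 stays at or below 0.968.

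Whether a gene differed by sex across all postnatal ages was tested in limma with age as a block, which assumes 1 sex difference for all ages. None of the 4 genes passed an adjusted p of 0.05. The male minus female differences were -3.34 ± 1.26 log2 (SE) for Akr1c18, -2.57 ± 0.866 for Pik3c2g, -0.59 ± 0.208 for Thrb and 0.78 ± 0.376 for Cyp17a1. The adjusted p in limma was 0.999 for each of them. The unadjusted p was 0.0345, 0.0225, 0.0264 and 0.0789, and 521 of 16720 genes had an unadjusted p under 0.05. Of all tested genes, 0.00598% passed, which is 1 gene, Xist, the RNA of X inactivation (higher in females; named after its value was seen). None of the 4 Y-linked genes passed either, with a median of 7.73 log2, and the library labelled P1 female, which holds their transcripts, entered the fit as female. Without either 12-week library the differences were -1.18 for Akr1c18, -1.42 for Pik3c2g and -0.28 for Thrb, and without either P1 library -5.00 for Akr1c18, -3.95 for Pik3c2g and 0.51 for Cyp17a1. The single-age ratios of Akr1c18, from 1.02 to 277, do not follow the 1 difference that this model assumes.

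Change with age was tested in the same fit with sex as a block, which assumes the same change in both sexes. Akr1c18 (at all 3 steps) and Pik3c2g (from P1 to 2 and from P1 to 12 weeks) changed by unlike amounts in males and females. So did Thrb (from 2 to 12 and from P1 to 12 weeks) and Cyp17a1 (from P1 to 2 weeks). In each case the counting intervals of the male and female ratios were apart. These changes do not follow that assumption. The SE of each gene is also moved by eBayes toward those of other genes. From P1 to 2 weeks Thrb rose in both sexes, with a difference of 1.44 ± 0.255 log2 (limma adjusted p 0.0146). It was the 1 gene of the 4 that passed, where 16.4% of all tested genes did (5.89% rose and 10.5% fell). Akr1c18 differed by 3.87 ± 1.54 (adjusted p 0.140) and Pik3c2g by 2.47 ± 1.06 (adjusted p 0.163), both higher in both sexes at 2 weeks, and neither passed. In single libraries Akr1c18 was 6.59-fold higher in males (6.16 to 7.06) and 32.6-fold in females (30.3 to 35.1), and Pik3c2g 1.85-fold (1.23 to 2.80) and 17.4-fold (11.8 to 26.9). Cyp17a1 differed by -0.56 ± 0.461 (adjusted p 0.451). Without any 1 of the P1 and 2-week libraries Thrb no longer passed (adjusted p 0.0665 to 0.167). Without either 12-week library the differences of Akr1c18 and Pik3c2g (3.87 and 2.47) could not move. The remaining 12-week library is then fitted exactly by its own age term, so this is no check of them. Their adjusted p was lower there, but with 1 residual degree of freedom it draws heavily on the spread of other genes.

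From 2 to 12 weeks 3 of the 4 genes fell, where 15.3% of all tested genes passed (9.89% fell and 5.4% rose). Akr1c18 fell by 7.79 ± 1.54 log2 (adjusted p 0.0213 in limma), Pik3c2g by 5.02 ± 1.06 (adjusted p 0.0263) and Cyp17a1 by 2.26 ± 0.461 (adjusted p 0.0235), all lower in both sexes. Without a trend in eBayes the SE was 1.89 for Akr1c18 and 1.24 for Pik3c2g, and neither passed in limma (adjusted p 0.0779 and 0.0803). In edgeR's quasi-likelihood test on the recovered reads, the differences of Akr1c18 and Pik3c2g were smaller, -5.89 (adjusted p 0.0349) and -4.14 (adjusted p 0.0387). In females alone Akr1c18 was 34.8-fold lower (32.3 to 37.6) and Pik3c2g 17.7-fold (11.9 to 27.6). In males Pik3c2g was at least 14.4-fold lower (against the same floor, with an interval that starts at 11.4), and Akr1c18 1912-fold, from 2 reads (529 to 15791). Thrb did not pass (-0.13 ± 0.255, adjusted p 0.769), with 1.503-fold lower values in males (1.40 to 1.62) and 1.26-fold higher values in females (1.20 to 1.32). Without any 1 of the P1 and 2-week libraries Akr1c18 (adjusted p 0.0590 to 0.179) and Cyp17a1 (0.0624 to 0.211) no longer passed, and neither did Pik3c2g without the 2-week male (0.154) or 2-week female library (0.184). Without the 12-week male library the differences were -4.54 for Akr1c18 and -3.29 for Pik3c2g.

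From P1 to 12 weeks Thrb rose by 1.31 ± 0.255 log2 (adjusted p 0.00808 in limma) and Cyp17a1 fell by 2.81 ± 0.461 (adjusted p 0.00423), in both sexes. Of all tested genes 41.2% passed over this span (17.6% rose and 23.5% fell). Akr1c18 (-3.92 ± 1.54, adjusted p 0.0834) and Pik3c2g (-2.55 ± 1.06, adjusted p 0.0972) did not pass. In females their 12-week level was within counting error of the P1 level, with ratios of 0.936 (0.843 to 1.04) and 0.986 (0.546 to 1.78). In males Akr1c18 was 290-fold lower than at P1 (80.1 to 2398). Pik3c2g was at least 7.80-fold lower there, against a floor of 3 reads, with an interval that starts at 6.06. Thrb was 1.76-fold higher in males (1.61 to 1.92) and 3.51-fold in females (3.25 to 3.78). Without the P1 male library Cyp17a1 (adjusted p 0.0560) and Thrb (0.0504) no longer passed, nor did Thrb without the library labelled P1 female (0.111). Without the 12-week female library the differences were -7.16 for Akr1c18 and -4.27 for Pik3c2g. Without the library labelled P1 female the Pik3c2g difference was -4.61. Without the 12-week female library the Thrb difference was 0.83.

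**Figure D4:**
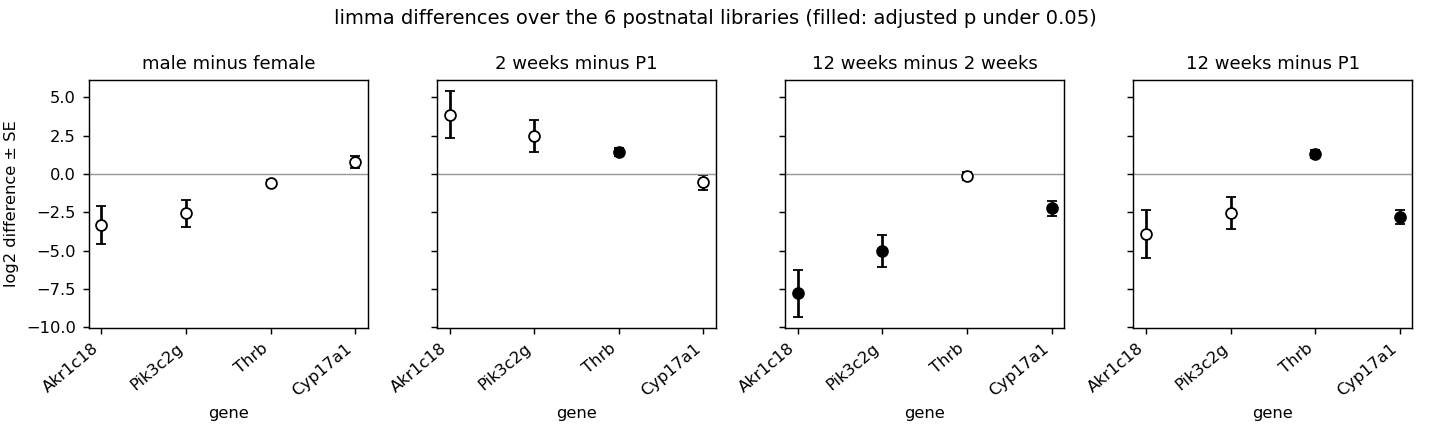
Log2 differences with SE of the 4 genes in the 4 limma comparisons over the 6 postnatal libraries, with filled points where the adjusted p was under 0.05. No gene passes for sex, Thrb passes from P1 to 2 weeks, Akr1c18, Pik3c2g and Cyp17a1 pass from 2 to 12 weeks, and Thrb and Cyp17a1 pass in opposite directions from P1 to 12 weeks.

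The 4 genes did not share 1 profile. Likeness was measured as the root mean square difference between log2 profiles over the 7 libraries, each centred on its own mean. For Akr1c18 the nearest of 16719 other genes was Pik3c2g, at 1.47 log2, where the median gene was at 3.70. Next came 4930486L24Rik at 1.88 and Akr1d1, a steroid 5-beta-reductase, at 2.02. Akr1d1 had 8807 normalized counts in the 2-week female library and, at 12 weeks, 5.59 in male against 34772 in female, so it shared the low male value but not the lower female one. For Pik3c2g the nearest were 4930486L24Rik at 0.962, LOC101056219 at 1.03 and Nrep at 1.17, with Akr1c18 in place 12. Nrep had 8046 normalized counts in the 2-week female library and, at 12 weeks, 232 in male against 3293 in female.

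Thrb and Cyp17a1 had other neighbours. Nearest to Thrb were Gm31235 at 0.108 log2, the AP-1 factor Fosl2 at 0.209 and the aldehyde dehydrogenase Aldh2 at 0.209. Aldh2 had 5040 normalized counts in 12-week male and 13721 in 12-week female, an order shared with Thrb. Nearest to Cyp17a1 were LOC102633497 at 0.545, the lactate transporter Slc16a3 at 0.563 and the integrin Itga2 at 0.586. Slc16a3 had 1070 normalized counts at E18.5, 21.0 in 12-week male and 19.2 in 12-week female, highest before birth as Cyp17a1 was. Thrb ranked 1838 and Cyp17a1 10833 in likeness to Akr1c18. The ratio of Akr1c18 to Pik3c2g normalized counts was 6.88 at E18.5, 24.8 and 28.8 at P1, 88.4 and 53.9 at 2 weeks (male, then female) and 27.4 in 12-week female, so the pair did not move in constant proportion.

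Akr1c18 and Cyp17a1 are also gonadal genes. Of 8 ovary markers, Fshr and Zp3 had 0 reads in all 7 libraries, and the summed level was 154 to 271 normalized counts. Of 8 testis markers Insl3 had 0 reads in all 7, and the summed level was 187 to 479. Other markers were detected, with Inhbb of the ovary list at 114 to 238 and Cldn11 of the testis list at 81.5 to 213. The 2-week female library, where Akr1c18 was highest, had 186 and 315 for the ovary and testis sums. The part of gonadal tissue in the levels of Akr1c18 and Cyp17a1 was not tested.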

How the data were processed

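RNA was sequenced from 7 adrenal pools, 1 per group. The authors deposited 1 table of normalized counts. The submitters' processing notes name CASAVA 1.8.2, HISAT2 2.1.0, HTSeq 0.9.1, DESeq2 2.11.40.6 and the build mm10; annotation and strand setting are not given in the sources used here. The deposited signal values are whole reads divided by 1 size factor per library: 100% of values above 0 came out whole within 0.001 reads. Genes without strand information cannot be told from antisense partners.

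Genes with a mean of at least 10 were tested on log2(normalized count + 1), which understates changes of low genes, with limma 3.58.1 in R 4.3.3 (additive model of age and sex over 6 postnatal libraries, 2 residual degrees of freedom, trend in eBayes, two-sided, Benjamini-Hochberg over 16720 genes, threshold 0.05). With 1 library per age and sex, the spread left mixes noise between pools with age changes that differ between the sexes. P-values measure that mixture, not the spread between animals. E18.5 entered no test. Counts in single-library comparisons took log2(normalized count + 1) differences of at least 2-fold; printed ratios have no pseudocount. edgeR 4.0.16 on the recovered reads, other filters, scalings and left-out libraries were alternatives. Fits were tested on simulated data with additive changes only, which cannot show how they behave where the change with age differs between the sexes. Sequences are from RefSeq GRCm38.p6 (3 of 4 genes matched) and GENCODE M21 transcripts; exon lengths join all GENCODE transcripts of a gene.

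The members and lists were chosen with earlier results of these data known. Named are the 4 genes, up to 3 genes with the highest and 3 with the lowest differences past the threshold per list and comparison, and the 3 nearest profiles per gene; 1 gene of the lists is not reported here. The motif TATAA, the ratio to Cyp11a1, the ranks per kilobase and the shared stretches were chosen after the data were seen.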

Additional observations from a re-analysis of the deposited data

Results flagged for a closer look

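For 3 of the 4 genes, libraries of the same contrast went opposite ways; these differences were not tested. Pik3c2g was higher in the male library at P1 (log2 male over female 0.19, within counting error) and higher in the female library at 2 weeks (-3.05) and at 12 weeks (-2.75, a bound against the floor of 3 reads). Thrb changed from 2 to 12 weeks by -0.588 log2 in males and by 0.331 in females. Cyp17a1 changed from P1 to 2 weeks by -1.22 in males and by 0.0918 in females, the latter within counting error and from the library labelled P1 female.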

How the results depend on the processing

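No paired analysis was possible because each group has 1 library and the labels number no replicates; the libraries were matched only by age and sex. Over the 6 alternatives that keep all libraries, 88 tests of the 4 genes kept sign and side of the threshold. The size was not always kept: edgeR gave -2.35 for sex and -2.44 from P1 to 12 weeks for Akr1c18. Another 8 tests lost the call without a change of sign and 0 changed sign. Of the single-library ratios 39 stayed within counting error, and the sex ratio of Akr1c18 at 2 weeks moved to -2.27 log2 with equal column totals. The 39 include the sex ratio of Pik3c2g at 12 weeks, whose interval is open on 1 side. Its move from -2.75 to -5.85 log2 with a pseudocount of 0.5 therefore could not leave the interval. With all genes above a mean of 0, Thrb (1.44 at the P1 to 2 weeks step and 1.31 up to 12 weeks), Akr1c18 (-7.79), Pik3c2g (-5.02) and Cyp17a1 (-2.26, all 3 from 2 to 12 weeks) no longer passed; without a trend in eBayes neither did Thrb (1.44 from P1 to 2 weeks), Akr1c18 (-7.79) or Pik3c2g (-5.02). Over the same 6 alternatives the adjusted p ranged from 0.0146 to 0.127 for Thrb from P1 to 2 weeks. From 2 to 12 weeks it ranged from 0.0182 to 0.182 for Akr1c18, 0.0216 to 0.188 for Pik3c2g and 0.0173 to 0.129 for Cyp17a1. From P1 to 12 weeks it ranged from 0.00868 to 0.0762 for Thrb and from 0.00366 to 0.0426 for Cyp17a1. With a library left out it went higher for Thrb and Cyp17a1.

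The number of genes passing for sex was 0 with all genes above a mean of 0 (783 at an unadjusted p under 0.05), 0 without a trend (638) and 0 in edgeR (667). It was 0 and 1672 from P1 to 2 weeks, and 0 and 1661 from 2 to 12 weeks, with all genes above a mean of 0 and without a trend. From 2 to 12 weeks 903 genes rose and 1654 fell, against 647 and 2515 with equal column totals, which moved the median of all genes to -0.20 (and to -0.15 for P1 to 12 weeks). The cause was not tested.

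Leaving out 1 library, which leaves 1 residual degree of freedom, gave 0 to 51 genes for sex, 2 to 4461 from P1 to 2 weeks, 421 to 3035 from 2 to 12 weeks and 3207 to 6271 from P1 to 12 weeks. For sex Akr1c18 ranged from -5.00 to -1.18 log2, Pik3c2g from -3.95 to -1.42, Thrb from -0.77 to -0.28 and Cyp17a1 from 0.51 to 1.15. At the P1 to 2 weeks step Akr1c18 ranged from 1.38 to 6.36 log2, Pik3c2g from 0.41 to 4.54 and Thrb from 1.17 to 1.71. From 2 to 12 weeks Akr1c18 ranged from -11.04 to -4.54, Pik3c2g from -6.74 to -3.29, Cyp17a1 from -2.81 to -1.70, and Thrb from -0.61 to 0.35, reversing without the 2-week male (0.082) and without the 12-week male library (0.35). From P1 to 12 weeks Akr1c18 ranged from -7.16 to -0.67, Pik3c2g from -4.61 to -0.48, Thrb from 0.83 to 1.79 and Cyp17a1 from -3.23 to -2.40. With 0 to 7 reads, the 12-week male values of Akr1c18, Pik3c2g and Cyp17a1 are limited by depth.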
